A study of Mus musculus with 14 samples.

Results

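Orphan CpG islands are stretches of CpG-rich sequence that lie away from every annotated promoter. Here they were the islands called on the repeat-masked mouse genome (longer than 200 bp, GC content 50% or more, observed/expected CpG above 0.6) that lay more than 3 kb from each of the 132629 transcription start sites (TSSs) of GENCODE release M21. The rule used the sequence and the annotation and no measured value. It gave 1874 orphan islands among 16099 islands in all, and the other 14225 lay within 3 kb of a TSS. Orphan islands were short, with a median length of 324 bp and 29 CpGs, against 575 bp and 58 CpGs for islands near a TSS. Of the 1874, 723 were centred in coding sequence, 378 in introns, 35 in untranslated or other exons of protein-coding genes, 20 in exons of non-coding genes and 718 between genes.

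In most of the mammalian genome, CpGs are methylated and have been lost by mutation of the methylated base to TpG. CpG islands escape this and usually stay unmethylated, and proteins with a CXXC domain bind their unmethylated CpGs. Such domains bring KMT2 complexes, which methylate H3K4 and of which ASH2L is a core subunit, to islands. At active promoters the CpG island carries H3K4me3, and H3K4me1 flanks it, whereas H3K4me1 without H3K4me3 is the usual mark of enhancers. Orphan islands are known to include promoters of unannotated transcripts, islands within or next to enhancers, and exons that are rich in CpG because of the protein they encode.

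ChIP-seq for H3K4me1 was carried out in NG3 cells, 1 clone of immortalized mouse embryo fibroblasts (iMEF cells, Ash2l fl/fl with CreER) in which the endogenous Ash2l is deleted and replaced by lentiviral human ASH2L fused to an FKBP degradation tag (FKBP-HA2-ASH2L). The control group received no dTAG-13, the compound that triggers degradation of the fusion protein, and the treated groups received it for 30 min or for 2, 4, 8 or 16 h. Each of these 6 groups had 2 H3K4me1 libraries, and the control and the 16 h group had 1 input library each. All groups share the deletion and the fusion protein. The table used here holds 160144 H3K4me1 sites (peaks) as a single set over all groups, 160108 of them on chromosomes, with no value per library or group. Everything below therefore describes where a site was called in at least some of the libraries, with no replicate error and no time course, and the spread given is the 95% interval from counting islands or sites. Islands of the same gene or locus are not independent of each other, so these intervals are too narrow by an amount that was not tested.

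The sequences of 4 orphan islands show what the rule selects. They are the islands of up to 300 bp with the most CpGs among those between genes and those in coding sequence, each with and without an H3K4me1 site, and are printed from the plus strand of GRCm38.p6 (mm10) with every CpG in capitals. The first lies between genes, nearest to Ccnd1 (cyclin D1), at chr7:144943339-144943616, has 44 CpGs in 278 bp and lies inside a site of 11610 bp. The second lies between genes, nearest to Eif2s3x (a subunit of a translation initiation factor), at chrX:94177981-94178252, has 42 CpGs in 272 bp and no site.
Ccnd1: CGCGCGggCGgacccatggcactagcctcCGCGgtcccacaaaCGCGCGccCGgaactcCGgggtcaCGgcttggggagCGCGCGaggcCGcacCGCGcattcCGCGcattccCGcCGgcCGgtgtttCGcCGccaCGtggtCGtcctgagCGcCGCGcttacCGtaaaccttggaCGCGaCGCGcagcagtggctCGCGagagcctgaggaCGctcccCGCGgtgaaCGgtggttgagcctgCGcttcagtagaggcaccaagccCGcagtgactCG
Eif2s3x: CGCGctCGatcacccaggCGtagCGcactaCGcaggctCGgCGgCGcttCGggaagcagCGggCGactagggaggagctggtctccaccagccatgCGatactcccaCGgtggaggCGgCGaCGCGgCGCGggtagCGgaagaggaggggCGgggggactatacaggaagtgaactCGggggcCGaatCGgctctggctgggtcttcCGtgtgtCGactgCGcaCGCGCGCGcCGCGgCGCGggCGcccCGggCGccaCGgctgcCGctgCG
The third is centred in the coding sequence of Itgb4 (integrin beta 4), at chr11:116004825-116005123, has 38 CpGs in 299 bp and lies inside a site of 1467 bp. The fourth is centred in the coding sequence of Dupd1 (a dual specificity phosphatase), at chr14:21686626-21686919, has 36 CpGs in 294 bp and no site.
Itgb4: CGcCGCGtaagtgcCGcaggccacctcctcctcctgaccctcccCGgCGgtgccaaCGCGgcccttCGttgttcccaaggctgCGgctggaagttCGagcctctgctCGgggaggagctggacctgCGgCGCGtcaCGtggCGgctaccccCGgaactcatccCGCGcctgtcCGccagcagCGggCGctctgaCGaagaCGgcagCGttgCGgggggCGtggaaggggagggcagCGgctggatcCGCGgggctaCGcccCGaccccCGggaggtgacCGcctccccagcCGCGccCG
Dupd1: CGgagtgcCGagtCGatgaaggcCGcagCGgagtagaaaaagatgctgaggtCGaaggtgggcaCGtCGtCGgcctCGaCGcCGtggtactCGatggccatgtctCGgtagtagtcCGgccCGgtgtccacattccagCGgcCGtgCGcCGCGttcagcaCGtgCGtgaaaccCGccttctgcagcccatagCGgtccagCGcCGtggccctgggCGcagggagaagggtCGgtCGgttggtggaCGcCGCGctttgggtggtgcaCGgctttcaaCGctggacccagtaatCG

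An H3K4me1 site overlapped 627 of the 1874 orphan islands, or 33.5% (95% Wilson interval 31.4 to 35.6%). Of all 16099 islands 77.4% were overlapped, and of the islands within 3 kb of a TSS 11835 or 83.2% (82.6 to 83.8%). The difference between orphan islands and islands near a TSS was -49.7 percentage points (95% Newcombe interval -51.9 to -47.5). It was present at every length, with -36.8 points for islands of up to 300 bp, -44.2 for 300 to 500 bp, -41.4 for 500 to 1000 bp and -50.8 for longer islands. Near the threshold of the rule there was no step. Of the 332 islands at 2 to 3 kb from a TSS 35.8% had a site, and of the 253 islands at 3 to 4 kb 36.0%, while islands that held a TSS reached 89.2%. The set pools control and treated libraries, and the paper reports that gains of H3K4me1 after dTAG-13 lay almost exclusively at promoters. How far such gains raise or lower the values of islands near a TSS, here and below, was not tested.

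The overlap of orphan islands differed by where they lay. Between genes 352 of 718 islands had a site, or 49.03% (45.4 to 52.7%), in introns 135 of 378, or 35.7% (31.05 to 40.7%), and in coding sequence 120 of 723, or 16.6% (14.1 to 19.5%). The small classes lay between these, with 11 of 35 untranslated or other exons of coding genes and 9 of 20 exons of non-coding genes. Islands in coding sequence were overlapped less often than islands between genes by 32.4 points (difference -32.4, interval -36.9 to -27.8) and less often than islands in introns (difference -19.1, -24.7 to -13.6). Introns in turn were below the space between genes (-13.3, -19.2 to -7.16). Within genes of any kind as a whole 275 of 1156 islands had a site, or 23.8%, which was 25.2 points below the islands between genes (difference -25.2, -29.6 to -20.8). This last difference depended on the repeat masking. Among the 8727 orphan islands called without masking, of which 7.88% had a site, it was 3.32 points (2.10 to 4.602) in the opposite direction. The other differences by position were not computed without masking.

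**Figure D1:**
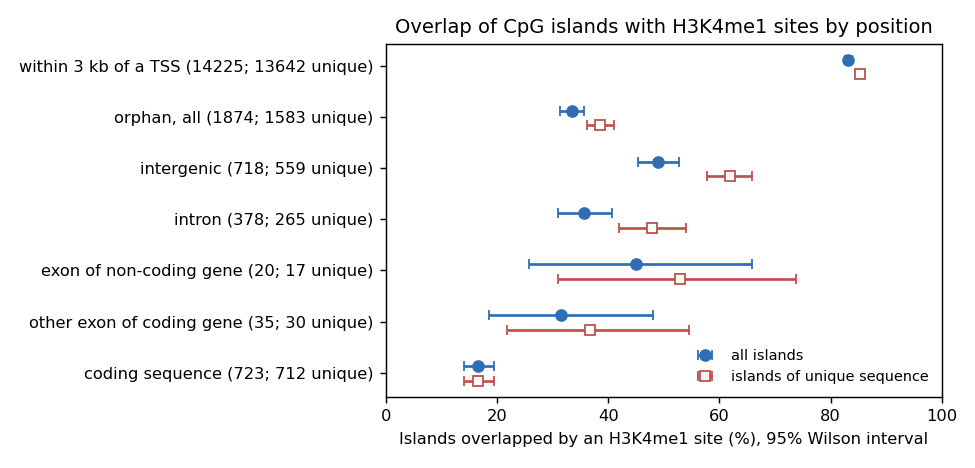
Share of CpG islands overlapped by an H3K4me1 site (x axis, percent) by position (y axis, with the number of islands and of islands of unique sequence); points are shares and bars 95% Wilson intervals. Orphan islands between genes sit at 49.03% and those in coding sequence at 16.6%, and unique islands between genes and in introns lie to the right of all such islands.

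Reads cannot be placed in sequence that occurs several times in the genome, so islands were also split by whether at least 90% of their words of 75 bases occur once. Of the orphan islands 1583 were unique by this measure and 38.6% of them had a site (36.2 to 41.0%). Of the 291 repeated ones 16 had a site, or 5.50%. The repeated islands lay mainly between genes (159, of which 6 had a site) and in introns (113, of which 8 had a site), and only 11 lay in coding sequence. Among unique islands the shares were 61.9% between genes, 47.9% in introns and 16.6% in coding sequence, so the distance of coding sequence from the space between genes was larger (-45.3 points, -50.0 to -40.3). Unique islands between genes still stood below unique islands near a TSS, at 85.3% (-23.4 points, -27.5 to -19.4).

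The share with a site was larger in each longer class of islands up to 1000 bp, in each position, and the shortest class and the class of 500 to 1000 bp differed beyond their intervals. Between genes it was 36.8% for islands of up to 300 bp, 52.8% for 300 to 500 bp and 66.2% for 500 to 1000 bp. In introns the same classes gave 26.0%, 41.6% and 53.3%, and in coding sequence 10.5%, 14.9% and 28.4%. Above 1000 bp the numbers are small, with 10 of 18 islands between genes, 6 of 13 in introns and 10 of 32 in coding sequence, and the intervals overlap those of the class before. At equal length, coding sequence stayed below the space between genes in the first 3 classes (-26.3, -37.9 and -37.8 points, with intervals that leave out 0), and the last class could not separate them (-24.3, -48.2 to 3.57).

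**Figure D2:**
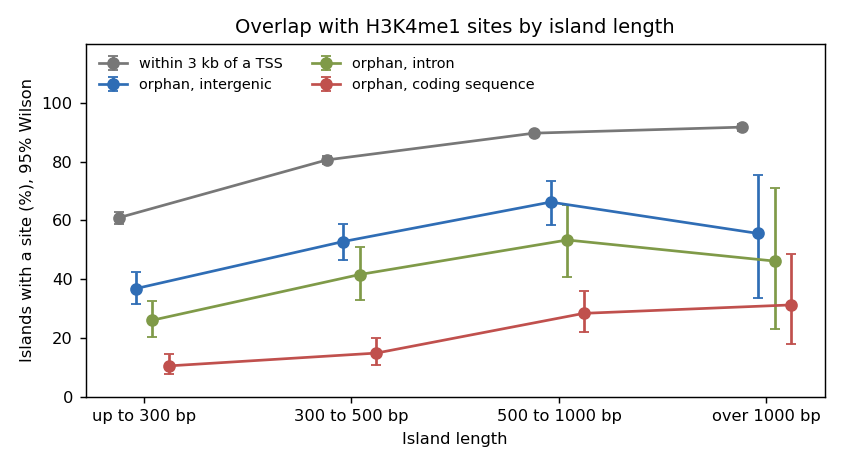
Share of islands with an H3K4me1 site (y axis, percent) by island length (x axis) for islands near a TSS and for orphan islands between genes, in introns and in coding sequence, with 95% Wilson intervals. Coding sequence stays lowest in each class, with 10.5% in the shortest class against 36.8% between genes.

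Where an orphan island had a site, the site usually covered all of it. Of the 627 islands, 421 (67.1%) lay wholly inside 1 site, 133 had their centre covered but not the whole island, and 73 (11.6%) were touched at an edge with a free centre. Islands near a TSS with a site, which are longer, lay wholly inside 1 site in 56.1% of cases and were touched only at an edge in 17.7% (differences 11.0 points, 7.17 to 14.7, and -6.03 points, -8.41 to -3.20). Among islands over 500 bp the shares wholly inside were 51.4% and 50.0% (1.41 points, -5.44 to 8.21), and those touched at an edge 14.4% and 19.8% (-5.41 points, -9.64 to 0.0845), so neither difference leaves out 0 at that length. The centre was covered in 29.6% of orphan islands, against 64.0% of all islands and 68.5% of islands near a TSS. A free centre with sites on both sides, the arrangement of a promoter with flanking H3K4me1, was found at 60 orphan islands (3.20%) and at 1636 islands near a TSS (11.5%, difference -8.30 points, -9.18 to -7.26). Gains of H3K4me1 after dTAG-13 over a centre would lower the counts of free centres near a TSS, by an amount that was not tested. No site lay within 1 kb of 1073 orphan islands (57.3%), so 42.7% had a site within 1 kb, against 81.3% of all islands.

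Coverage by sites as a function of distance from the island centre separated the positions. Around islands between genes it was 43.3% in the central 100 bp, 16.9% at 1 kb and 10.9% on average at 5 to 10 kb, where 5.64% is the value over the whole genome. Around islands in introns it fell from 31.5% to 14.5%. Around islands in coding sequence the centre was covered at 14.2%, close to the 14.7% at 5 to 10 kb, and coverage at 1 kb was lower than both, at 7.75%. The rule keeps TSSs more than 3 kb from each orphan island and allows them beyond. The nearest TSS lay at a median of 7972 bp from islands in coding sequence and 11210.5 bp from those between genes. How far this shapes the profiles was not tested.

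**Figure D3:**
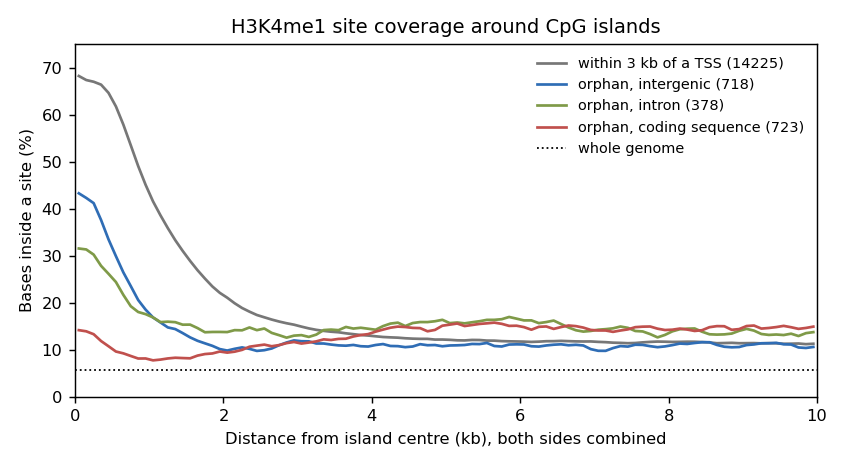
Share of bases inside an H3K4me1 site (y axis, percent, bins of 100 bp) by distance from the island centre (x axis, kb, both sides combined) for each position, with the value of the whole genome as a dotted line. Islands between genes and in introns have a maximum at the centre (43.3% and 31.5%), and coding sequence has a dip to 7.75% at 1 kb. The rule keeps TSSs more than 3 kb from every orphan island.

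Sites at orphan islands were wider than sites far from TSSs that touched no island. The 630 sites that touched an orphan island had a median width of 1174.5 bp (95% interval of the median 1100 to 1265, quartiles 697 and 2058.5), against 543 bp (540 to 547) for the 111951 sites more than 3 kb from a TSS that touched no island. The 568 of them that also lay wholly beyond 3 kb had a median of 1102 bp (1028 to 1174). Sites at islands near a TSS had a larger median, 1509 bp (1485 to 1533). Of them 4.14% were at least 5000 bp wide, against 6.03% at orphan islands, 2.99% of the 568 and 0.461% of distal sites with no island. Of the 38 sites this wide at orphan islands, 21 reached to within 3 kb of a TSS. Of the same 38, 14 also touched an island near a TSS and so count in both groups. A wide site touches an island more easily than a narrow one. The 308 sites centred in an orphan island, which are less subject to this, had a median of 893 bp (818 to 974), above 543 bp, and below the 1347 bp of sites centred in islands near a TSS. Median widths were 977 bp (838 to 1204) at islands in coding sequence, 1258.5 bp (1092 to 1592) in introns and 1202 bp (1102 to 1315) between genes, with overlapping intervals. Of the 630 sites, 62 reached to within 3 kb of a TSS and had a median of 2912 bp. Among the 112526 sites more than 3 kb from a TSS, 568 (0.505%) touched an orphan island.

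**Figure D4:**
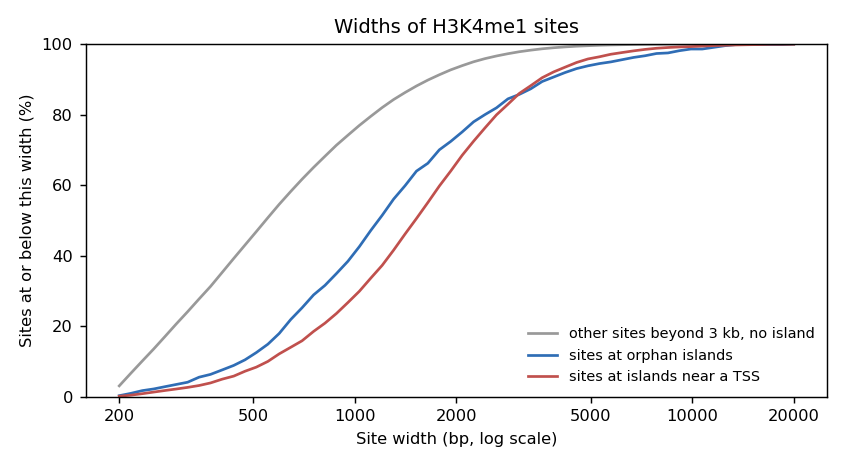
Cumulative share of H3K4me1 sites (y axis, percent) at or below a width (x axis, bp, log scale) for sites at orphan islands, sites at islands near a TSS, and sites more than 3 kb from a TSS with no island. The curve of orphan islands runs between the others up to 2842 bp and crosses that of islands near a TSS by 3072 bp, with medians of 1174.5, 1509 and 543 bp.

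Orphan islands with a site were longer than those without, with more CpGs and a higher GC content. The limit given above for length holds here too. Their median length was 379 bp against 297 bp, their median number of CpGs 38 against 25, and their median GC content 66.3% (65.7 to 66.8%) against 62.8% (62.2 to 63.2%). The median observed/expected CpG was 0.902 against 0.877 over all orphan islands. Between genes it was 0.899 against 0.927, in the opposite direction, with overlapping intervals. Of the islands with a site 97.4% were unique, against 77.9% of those without. The share with a site was 18.6% for islands with a GC content of 50 to 60%, 27.7% at 60 to 65%, 41.7% at 65 to 70% and 57.2% above 70%. The ratio of observed to expected TpG and CpA, the products of decayed CpGs, had a median of 1.25 in coding sequence and 1.06 between genes, against 1.03 in islands near a TSS. In coding sequence the share with a site was 8.14% for a CpG ratio under 0.8 and 26.1% for a ratio over 1.0. Between genes it was 49.4% and 36.7% in the same classes, but of the 207 islands between genes with a ratio over 1.0 only 130 were unique.

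Short consensus sequences were counted on both strands in the central 200 bp of each island, of which 6 were searched. The GC box GGGCGG, bound by factors of the SP and KLF families, was present in 50.6% of orphan islands with a site and 25.7% of those without (difference 24.9 points, 20.3 to 29.4), against 52.1% of all islands. The difference was 26.2 points between genes, 25.6 in introns and 9.95 in coding sequence, each with an interval that leaves out 0. GC content moves with it, and within the 4 classes of GC content the differences were 19.95, 20.3, 18.98 and 14.6 points. TGANTCA, the core of AP-1 sites (Fos and Jun), was rare, at 2.71% of orphan islands with a site and 1.36% of those without (difference 1.35 points, 0.0526 to 3.02), against 1.41% of all islands. Between genes these counts were 14 of 352 islands and 5 of 366, in introns 2 of 135 and 2 of 243, and in coding sequence, in the opposite direction, 0 of 120 and 10 of 603, and the intervals of the last pair of differences include 0 (0.658 points, -1.73 to 4.46, and -1.66 points, -3.03 to 1.53). For the other 4 (CACGTG, the E-box, CCGGAAG, bound by ETS factors, TGACGTCA, the CRE, and CGCATGCG, the core bound by NRF1) the differences over all orphan islands were -1.33, -0.422, 0.715 and -0.0847 points, each with an interval that includes 0, and these letters were found in 5.57%, 7.66%, 0.839% and 1.04% of all islands. By position, 1 of their 12 differences leaves out 0, that of CCGGAAG in coding sequence, found in 1 of 120 islands with a site and 33 of 603 without (-4.64 points, -6.86 to -0.594). The presence of such letters is a description of the sequence and not of a bound factor.

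Coding-sequence islands had a site more often when closer to a TSS. Of them, 20.8% of the 432 islands at 3 to 10 kb and 11.6% of the 258 islands at 10 to 50 kb had a site (difference 9.21 points, 3.48 to 14.5), and none of the 28 islands at 50 to 100 kb (upper limit 12.1%). Between genes the same classes gave 52.5% and 47.3%, an interval that includes 0 (5.24 points, -2.35 to 12.7), and 19 of 42 islands at 50 to 100 kb had a site. RefSeq, another annotation, places a TSS within 3 kb of 341 of the orphan islands. Of these 45.7% had a site, against 30.7% of the 1533 others (15.0 points, 9.31 to 20.8). In introns this difference was 18.9 points (6.75 to 30.7), and between genes 3.82 points (-4.42 to 11.99), which includes 0.

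Islands between genes had a site more often where the promoter of the nearest gene had one. Within genes the interval of this difference includes 0. Of the 541 islands between genes whose nearest protein-coding gene had a site within 1 kb of a TSS, 55.8% had a site themselves, against 28.2% of the 177 whose nearest gene had none (27.6 points, 19.4 to 35.0). Among unique islands this difference was 26.2 points (15.8 to 36.0). Within protein-coding genes 198 of 898 islands (22.0%) in genes with a promoter site had a site, and 37 of 159 (23.3%) in genes without (-1.22 points, -8.83 to 5.31). With a site counted within 1 kb of the island this turned to 8.11 points (0.152 to 15.1), and the sign was positive in 4 of 13 settings, this one included. These islands lay in 711 and 140 genes. The part in coding sequence had 15.5% against 23.2% and the part in introns 36.7% against 24.5%, with intervals that include 0 in both cases. When host genes were divided into 3 equal parts along the direction of transcription, islands in introns had a site in 41.3% of cases in the first part and 26.6% in the last (14.8 points, 0.818 to 27.6), and islands in coding sequence in 11.9% and 17.5% (-5.63, -13.2 to 7.83).

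Of the 10 longest orphan islands, 4 had a site and 6 had none. The longest, 5076 bp with 378 CpGs at chrX:12086983-12092058, lies in an intron of Bcor, which encodes a corepressor of BCL6 and a subunit of a Polycomb complex. Sites covered 74.1% of it, the widest being 3326 bp, and a RefSeq TSS lies 428 bp away. An island of 1768 bp with 246 CpGs at chr15:85670333-85672100, in an intron of the non-coding gene Lncppara and nearest to Ppara (a nuclear receptor of fatty acid oxidation), lay wholly inside a site of 12441 bp. An island of 1763 bp in the coding sequence of Nkpd1 lay wholly inside a site of 1964 bp, and one of 1793 bp nearest to Spag6 (a protein of the sperm flagellum) was covered at 81.6%, 218 bp from a RefSeq TSS.

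The 6 without a site include the second longest, 3334 bp with 233 CpGs at chr15:76178574-76181907, in the coding sequence of Plec, which encodes the cytoskeletal linker plectin. Others lie in exons of Dmrta2 (2612 bp, a transcription factor of the doublesex family), Cilp2 (2437 bp with 293 CpGs, a cartilage matrix protein), Bcl11b (2010 bp, a zinc finger factor of T cell development) and AI464131 (1885 bp). The remaining one lies between genes nearest to Cxcr3 (2184 bp, a chemokine receptor), with 80.1% of its words unique. Apart from the island near Cxcr3, all of these were wholly unique. No site lay within 1 kb of any of the 6. The island near Cxcr3 holds a RefSeq TSS, and RefSeq TSSs lie 79 bp from the island of Cilp2 and 2017 bp from that of Dmrta2.

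**Figure D5:**
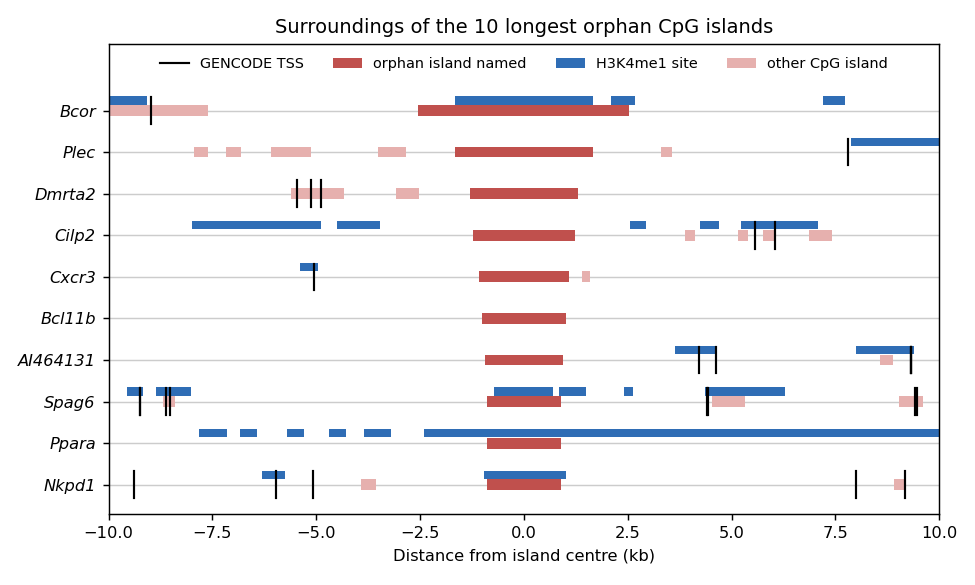
Surroundings of the 10 longest orphan islands (rows, named by host or nearest gene) by distance from the island centre (x axis, kb), with the islands in red, other CpG islands in pale red, H3K4me1 sites in blue and GENCODE TSSs as black lines. Bcor, Spag6, Ppara and Nkpd1 have a site over the island, and the 6 others have sites only further than 1 kb away or none in the window.

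The 10 widest sites at orphan islands lay over 11 islands. The widest, 18906 bp at chr8:84781141-84800046, covered an intronic island of Nfix (a transcription factor of the nuclear factor I family) wholly. A site of 13387 bp covered an island in an intron of Tead3 (a partner of YAP and TAZ), and a site of 12974 bp covered 51.1% of an island in the coding sequence of Inf2 (an actin-regulating formin). Between genes, sites of 12048 bp, 11610 bp, 11529 bp and 11028 bp lay over islands nearest to Gadd45b (a stress-induced signalling protein), Ccnd1, Kdm6b (an H3K27 demethylase) and Btg2 (an antiproliferative protein). The site near Ppara, a site of 10771 bp over a pair of islands nearest to Tex44, and a site of 9622 bp over an exon of non-coding genes nearest to Creb3l1 (a membrane-bound transcription factor of collagen genes) complete the set. These genes were named by the width of the site alone, and 5 of the 11 islands (Nfix, Inf2, Kdm6b, Btg2 and 1 of the pair near Tex44) lie within 3 kb of a RefSeq TSS or hold one. The sites over the islands nearest to Gadd45b, Ccnd1, Kdm6b and Btg2, and the site of 9622 bp, each also cover a GENCODE TSS. In this order, these TSSs lie 5714, 3414, 4310, 5917 and 3735 bp from the island.

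The shares of gene lists were read against the 33.5% of all orphan islands. Only the interval of the first list leaves this value out. The lists and their members were chosen with earlier results of these data known, so this interval describes the list and tests nothing. The 17 islands of the first list belong to 13 genes, so they are not all independent. All 17 are unique, and of all unique orphan islands 38.6% had a site. Because the share depends on position, the counts between and within genes are given too. Of the 17 islands assigned to regulators of mesenchymal cells and fibroblasts, 13 had a site (76.5%, 52.7 to 90.4%), 6 of 7 between genes and 7 of 10 within genes. Among them are the islands of Nfix, Nfib and Nfic, of Jun (an AP-1 subunit), of Twist1 (a regulator of mesenchymal fate), of Ski and Smad7 (inhibitors of TGF-beta signalling), and the 2 of Creb3l1. Several of these are only the nearest protein-coding gene and lie far away, with the closest coding TSS at 109008 bp for Jun, in an exon of the non-coding gene Junos, at 37193 bp for Ski and at 24039 bp for Smad7. The island near Smad7 was the longest of the list, with 1107 bp and 113 CpGs inside a site of 3630 bp. Klf4, a reprogramming factor, had 3 islands between genes, of which those of 371 bp and 619 bp lay inside sites of 1672 bp and 3724 bp and the one of 296 bp had none. They lie 16592, 118655 and 51101 bp from the nearest coding TSS. No site overlapped the islands of Zeb2, Mrtfb and Runx1, but a site lay within 1 kb on 1 side of the latter pair. The island named by Mrtfb lies in an intron of the non-coding gene Gm15738, 78643 bp from the nearest coding TSS, and holds a RefSeq TSS.

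Of the 26 islands of growth factor ligands 13 had a site (50.0%, 32.1 to 67.9%), 5 of 6 between genes and 8 of 20 within genes. All 3 islands of Wnt10a and the island of Ihh (Indian hedgehog) lay wholly inside sites, of 738, 6146 and 1102 bp for Wnt10a and 649 bp for Ihh. The islands of Wnt5a, Wnt5b, Wnt7a and Wnt10b, all within these genes, had none, nor did the longest of the list, 660 bp in the coding sequence of Gdf6. Wnt3 had 4 islands, of which the longest, 658 bp with 93 CpGs, was covered at 89.5% and the other 3 had no site. RefSeq TSSs lie 461 bp from the longest and 394 and 1380 bp from islands without a site. Wnt7b had 4 islands, with a site at both islands between genes and at neither island in the gene. Those between genes lie 43154 and 51950 bp from the nearest coding TSS. The second of them holds a RefSeq TSS and was covered at 31.9%, at an edge only. The Wnt10a island inside the site of 1102 bp lies between genes, 23582 bp from the nearest coding TSS and 128 bp from a RefSeq TSS.

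Homeobox genes had 111 orphan islands at 65 genes, and 41 of them (36.9%, 28.5 to 46.2%) had a site, 22 of 57 between genes and 19 of 54 within genes. The island of 1330 bp near Nkx2-5 (a cardiac regulator) was covered at 99.0% by a site of 1411 bp, and one of 1253 bp near Pax3 (a regulator of neural crest and muscle) lay inside a site of 2787 bp, 473 bp from a RefSeq TSS. Islands of 1260 bp in Isl2 and 1168 bp in Lhx5, regulators of neuron identity, had no site within 1 kb. Other developmental transcription factors had a site at 24 of 69 islands (34.8%, 17 of 37 between genes and 7 of 32 within genes), with sites over an island of 1484 bp near Ebf3 that holds a RefSeq TSS, an intronic island of 1213 bp in Ebf3 and an exonic island of 985 bp in Foxc1, and none over the island of 1279 bp nearest to Nr2f2. Among Zfp genes, which encode zinc finger proteins, 17 of 69 islands had a site (24.6%), 11 of 21 between genes and 6 of 48 within genes, and 56 of the 69 were unique. The 4 longest of these had no site. They lay in an intron of Zfp704 (1477 bp, with 25.1% of its words unique) and in the coding sequence of Zfp697 (1289 bp with 144 CpGs), Zfp467 (1261 bp) and Zfp319 (1123 bp).

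The smaller lists had few islands. None of the 5 islands in collagen genes had a site (upper limit 43.4%), the longest being 451 bp in the coding sequence of Col6a2. A RefSeq TSS lies 73 bp from the island in Col15a1. Of 7 islands at imprinted genes 1 had a site, and the islands of 734 bp and 422 bp near Cdkn1c (a cell cycle inhibitor), of 554 bp in Zdbf2 and of 283 bp near Dlk1 had none. Among subunits of KMT2 complexes and CXXC proteins, Tet3 (a dioxygenase that oxidizes methylated cytosine) alone had islands, 2 in its coding sequence, and neither had a site. Clustered protocadherins had 0 orphan islands.

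The 1874 islands were assigned to 1430 genes, of which 1139 had 1 island and 12 had 5 or more. Bcor had 11 islands, 5 of them with a site and 4 of them between genes. Pax2, a regulator of kidney and eye development, was the nearest coding gene of 10 islands, all between genes and all unique. They lie 5381 to 83649 bp from the nearest coding TSS, and none had a site within 1 kb. RefSeq TSSs lie 21, 68 and 2235 bp from some of these islands. The read-through gene Gm20388, which spans Gse1, Jph3, Cbfa2t3 and others, had 18 islands, 4 with a site. Zfhx3, a homeobox and zinc finger factor, had 8 islands, 7 of them in coding sequence, and none had a site. Ezh2 and Pdia4, the nearest genes on either side of a tandem array on chromosome 6 in which RefSeq annotates Rn4.5s, had 9 and 8 islands. This array holds 16 repeated islands of 724 to 1301 bp with 70 to 110 CpGs. They form a run nearest to Ezh2 and a run nearest to Pdia4, separated by the stretch between chr6:47686154 and chr6:47739974. Within the runs, and counting the step from the unique island beside the first, the median spacing was 4334 bp. At most 26.8% of the words of the repeated islands were unique, and none had a site. The unique island (444 bp) lay wholly inside a site of 525 bp.

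By chromosome, the share on the autosomes was 34.1% and ranged from 23.1% of 65 islands on chromosome 19 to 45.1% of 153 islands on chromosome 2. On chromosome X 12 of 48 islands had a site (25%, 14.9 to 38.8%). The table holds 0 sites on chromosome Y, where 21 orphan islands lie, of which 2 were unique.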

How the data were processed

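H3K4me1 ChIP-seq was made from 12 libraries of NG3 cells (6 groups with 2 replicates each), with 2 input libraries. The authors used Trim Galore for trimming, BWA for alignment to mm10, samtools for filtering, Picard MergeSamFiles for merging and Macs for broad peaks. Versions and thresholds are not given in the sources used here. The deposited table holds positions in bases (chromosome, start and end of each of 160144 sites), as a single set over all samples, with starts counted from 0. All positions printed are counted from 1. The depth per library is not part of the table and was not used.

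CpG islands were called on repeat-masked GRCm38.p6 by scoring 17 for a CpG and -1 for any other base, keeping runs longer than 200 bp with 50% GC or more and observed/expected CpG above 0.6. Islands, sites, GENCODE M21 (55413 genes, 141730 transcripts) and RefSeq TSSs were joined in Python 3.11.15 with numpy 2.4.6, pandas 2.3.3, numba 0.67.0 and scipy 1.17.1, with matplotlib 3.10.9 for figures. An island was overlapped when it shared at least 1 bp with a site, and its position was that of its centre. A promoter was 1 kb to either side of any TSS of the gene. Shares have 95% Wilson intervals, differences of shares 95% Newcombe intervals, and medians exact order-statistic intervals. All of them cover counting alone. The functions were tested on simulated data.

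Islands were named by the protein-coding gene that holds their centre (the longest if several) or otherwise by the nearest protein-coding TSS. Named are the 10 longest islands, the islands under the 10 widest sites, the 5 longest without a site, up to 4 of the longest for each of 9 gene lists (all islands of 2 lists, added after their values were seen) and the 5 genes with the most islands. Zfhx3 ties with the last of these. The members and the lists were chosen with earlier results of these data known. Changes over time were not tested, as the table holds no counts.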

Additional observations from a re-analysis of the deposited data

How the results depend on the processing

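The 7 values compared under other settings were the number of orphan islands, their overlap, the 3 differences in overlap, the width of sites and its difference from other distal sites. Overlap of orphan islands stayed below that of islands near a TSS under 13 of 13 settings (-72.1 to -38.9 points), and sites at orphan islands stayed wider than other distal sites under 10 of 10 (375 to 891 bp). The overlap of intragenic minus intergenic islands kept its sign and its side of 0 under 14 of 15 settings and reversed, to 3.32 points, without masking. For protein-coding genes with a promoter site minus those without, the difference turned positive with a distance of 1 kb (4.10 points), with the stricter island rule, which changes length, GC content and ratio together (11.4), without masking (2.37) and with a site counted within 1 kb of the island (8.11, 0.152 to 15.1), and only this last interval leaves out 0. The cause was not tested.

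The number of islands was 881 at a distance of 10 kb, 413 with the stricter island rule (at least 500 bp, GC 55%, ratio 0.65) and 8727 without masking. The share with a site was 48.7% with the stricter rule, 7.88% without masking, 37.0% with TSSs of protein-coding genes only, 36.2% at 1 kb, 38.6% for unique islands, 29.6% with at least 50% of the island covered or with its centre covered, 42.7% with a site within 1 kb, 29.9% with sites of at least 500 bp and 30.7% beyond 3 kb of RefSeq TSSs as well, a setting chosen after seeing the data, as was leaving out the repeated islands of chromosome 6 (33.7%). Median width was 1295 bp with sites of at least 500 bp and 1592 bp with sites merged within 1 kb.

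No paired analysis was possible because the peak set gives neither a library nor a replicate for any site. Hence edgeR, DESeq2, a count filter and leaving out replicates, planned for a table of counts, were not run.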
